A study of Mus musculus with 72 samples.

Results

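Genes of the primary cilium were followed through RNA-seq of the mouse hypothalamus. The list held 37 genes in 7 roles: intraflagellar transport complexes B and A, the BBSome, its chaperonin-like assembly factors, the transition zone, the basal body and the ciliary membrane. Members were matched by symbol to Ensembl rows of the deposited count tables, a step that uses no measured value. The list itself was chosen with earlier results of these data known. Of the 37, 36 were listed in all 10 tables, among 21749 gene IDs that the 10 tables share and 55401 IDs in all, and 35 of them had counts above 0. Bbs12 was listed with 0 counts in all 72 libraries, which at 3 counts per library allows up to 0.0753 scaled CPM in the deepest library and 0.933 in the shallowest, for counting error only. The hypothalamic markers Kiss1, Hmx2 and Hmx3 were listed at 0 in all 20 groups too, so no level is given for Bbs12. Tctn2, a transition zone gene, was listed in the E2 and E5 tables and analysed there: its 8 group means ran from 28.2 to 35.3 scaled CPM (CPM after the libraries were scaled to each other).

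The mice were adult B6 animals in 5 lines, E1 to E5, each with a knockout (KO) of a conserved candidate cis element that the study ties to hibernation, and wild types (WT). Each line had 4 groups, fasted KO, fed KO, fasted WT and fed WT, and 72 libraries in all. All E3 groups, both fasted E2 groups, fasted E1 WT and fasted E4 KO held 3 libraries, and the others 4. Fasted mice had gone 72 h without food but with water. The deposited count tables are named after Fto, a gene whose variants are tied to body weight in people, but the labels give no element's position and no animal's sex. The elements are noncoding, so no gene's count checks a genotype label. Fed and fasted libraries carried 1 batch label in E1 (22687) and in E3 (18854). In E2, E4 and E5 they carried different ones, so there feeding and batch cannot be told apart. Many libraries of a group carry separate numbers in their titles, but the labels do not say that these number separate animals. The p-values therefore measure the spread between libraries, which may be technical.

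The primary cilium is a single, non-motile projection of most neurons and glia. Intraflagellar transport (IFT) complex B carries cargo towards its tip with kinesin, complex A is needed for the way back with dynein and for the entry of receptors, and the BBSome moves membrane proteins out. The transition zone at the base gates entry. The melanocortin 4 receptor, which acts on feeding, lies with adenylyl cyclase 3 in the cilia of mouse hypothalamic neurons. Inherited loss of BBS genes or of ALMS1 causes obesity in people.

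Promoters of cilium genes are known to carry X-boxes, sites of RFX transcription factors with a left and a right arm. RefSeq promoters (GRCm38.p6, 250 bases before to 50 bases after the start) were at hand for 33 of the 37 members. Both strands were searched for a spaced form, GTTNC and GNAAC with 3 or 4 bases between them, and for the arm GTTGCC, which can lie inside a spaced form. A spaced form was found in 6 of the 33 (18.2%), against 2.29% of the 27025 genes with a promoter in the table. The arm was found in 17 of the 33 (51.5%), against 14.1% of these genes. The 6 spaced matches are shown because they let the shared arms be seen; capitals mark the whole match.
Ift57: GTTGCCTGGTAAC
Bbs7: GTTGCCTTGGAAAC
Tctn1: GTTGCCCGGGCAAC
Tctn3: GTTGCCAGGTAAC
Mks1: GTTGCCAGGGGAAC
B9d2: GTTGCCCCAGCAAC

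Promoters of 4 members that were called lower in fasting comparisons below are shown whole, picked to run from no match to a spaced form, with matches to the arm or a spaced form in capitals. Ift172 (chr5:31291065-31291364, minus strand) holds 1 arm. Tmem231 (chr8:111933764-111934063, minus strand) holds 2 arms. Tctn1 (chr5:122264411-122264710, minus strand) holds a spaced form at its end, with the arm on both strands. Ift43 (chr12:86082311-86082610, plus strand) holds no match, which says only that these letters are not in this window.
Ift172: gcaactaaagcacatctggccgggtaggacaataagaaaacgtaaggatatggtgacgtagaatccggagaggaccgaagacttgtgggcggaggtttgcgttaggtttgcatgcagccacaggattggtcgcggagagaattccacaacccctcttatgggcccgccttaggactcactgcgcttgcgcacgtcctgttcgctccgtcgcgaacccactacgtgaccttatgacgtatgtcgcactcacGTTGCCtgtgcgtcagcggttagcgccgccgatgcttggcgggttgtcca
Tmem231: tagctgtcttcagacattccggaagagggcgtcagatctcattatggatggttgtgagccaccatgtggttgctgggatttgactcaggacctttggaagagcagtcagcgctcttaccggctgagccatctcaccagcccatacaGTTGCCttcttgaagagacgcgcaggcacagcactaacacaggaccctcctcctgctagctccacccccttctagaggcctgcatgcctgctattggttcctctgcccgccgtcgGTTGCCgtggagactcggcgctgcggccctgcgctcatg
Tctn1: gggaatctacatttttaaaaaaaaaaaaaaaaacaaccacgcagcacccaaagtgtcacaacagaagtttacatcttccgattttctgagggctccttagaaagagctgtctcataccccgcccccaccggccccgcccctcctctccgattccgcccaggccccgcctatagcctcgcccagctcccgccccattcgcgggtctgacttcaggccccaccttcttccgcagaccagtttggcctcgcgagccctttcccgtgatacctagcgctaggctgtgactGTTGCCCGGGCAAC
Ift43: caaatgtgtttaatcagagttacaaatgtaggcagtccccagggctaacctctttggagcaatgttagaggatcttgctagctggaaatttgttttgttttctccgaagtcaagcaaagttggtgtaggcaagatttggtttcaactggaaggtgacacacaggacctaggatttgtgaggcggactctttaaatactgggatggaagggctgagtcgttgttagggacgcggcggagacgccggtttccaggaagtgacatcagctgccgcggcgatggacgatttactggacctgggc

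Depth ranged from 5517552 to 39999368 counts per library. Levels are given as scaled CPM, CPM after scaling over all 72 libraries, or as scaled CPM per kb of exons where genes are compared. No measured member fell below 6 counts in a library. The members summed to 1070.4 to 1478.2 scaled CPM per library, and the 20 hypothalamic markers to 196.6 to 2590.6. Some libraries held transcripts of neighbouring tissue. Summed choroid plexus markers reached 3314.5 scaled CPM in fasted E5 WT 1, 780.4 in fasted E3 KO 2, 669.2 in fed E3 KO 3 and 531.0 in fasted E3 WT 1. Pituitary markers reached 19608.3 in fasted E5 KO 3, 11931.2 in fasted E2 WT 2, 6594.6 in fasted E4 KO 3, 5783.3 in fasted E2 WT 3, 4633.6 in fasted E5 WT 3 and 1320.1 in fasted E2 WT 1. Fat markers reached 5458.5 in fed E2 KO 3. Cortical markers reached 348.8 in fasted E1 KO 4, 274.4 in fasted E3 WT 2 and 266.5 in fasted E1 WT 3, and fed E1 WT 2 held muscle transcripts. The shallowest library, fasted E4 KO 1, had 33.4% of its counts in 10 genes, against 2.25 to 4.14% in the others. In bulk tissue, fewer cells of a type and less RNA per cell cannot be told apart.

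Per length, the BBSome subunit Bbs9 and the complex A subunit Ift43 were the most abundant members. The median of the 20 group means was 25.7 scaled CPM per kb for Bbs9 and 25.1 for Ift43. Behind them stood B9d1 of the transition zone at 13.3 scaled CPM per kb and the complex B subunits Ift20 at 12.7, Ift74 at 12.7, Ift57 at 12.2 and Ift52 at 12. The ranges of these neighbours over the groups overlap: Ift20 ran from 10.4 to 18.2 scaled CPM per kb and Ift74 from 8.7 to 23.3. At the low end were Mks1 at 2.25, Tmem216 at 1.84 and Bbs10, a chaperonin-like BBSome assembly factor, at 1.26 scaled CPM per kb. The other complex B subunits lay between 3.63 (Ift80) and 10.6 (Ift172) scaled CPM per kb, the other complex A subunits at 4.63 (Ift122) and 5.85 (Ift140), and the other BBSome subunits between 5.01 (Bbs4) and 11.4 (Bbs2). The subunits of 1 complex thus differed several-fold in level per kb. The other transition zone genes lay between 3.25 (Tctn1) and 6.89 (Nphp4), and Alms1 of the basal body at 3.64 scaled CPM per kb. The ciliary membrane genes had 6.45 scaled CPM per kb for Adcy3, 5.46 for Arl13b, 4.14 for Tulp3 and 3.34 for Gpr161.

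**Figure D1:**
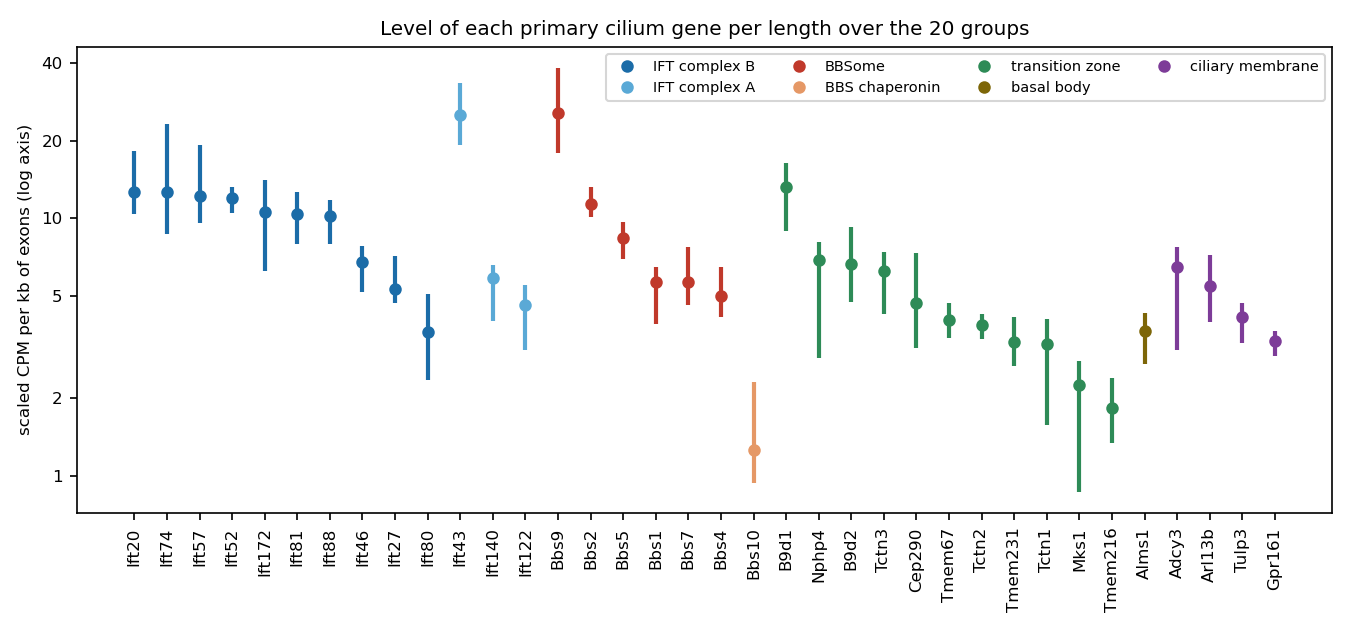
Level of the members per kb of exons (scaled CPM per kb, log axis), by role. Points are the median of the group means and lines run from the lowest to the highest group mean; Bbs9 stands at 25.7, Ift43 at 25.1 and Bbs10 at 1.26.

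Libraries of a group resembled each other in these genes. The SD of log2 scaled CPM within groups had a median of 0.146 over the 35 measured members, against 0.181 over 10706 genes in the members' range of levels. It was lowest for Ift52 and Ift172, at 0.098 each, and highest for Bbs10, at 0.275. Exons of 8 of the 35 overlap a gene on the other strand. Whether counting used strand is not stated, so counts of Ift57, Ift88, Bbs4, Tmem67, Tmem216, Tctn1, Cep290 and Adcy3 may hold reads of their partners.

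One member each of the membrane enzymes, membrane GTPases, complex B and the BBSome is given in every group, as mean ± SD of scaled CPM with n = 3 or 4. Adcy3, adenylyl cyclase 3, averaged 31.4 ± 2.02 in fasted and 47.4 ± 1.15 in fed E1 KO, and 37.5 ± 3.89 in fasted and 44.8 ± 4.44 in fed E1 WT. In E2, Adcy3 averaged 33.9 ± 3.69 in fasted and 40.7 ± 6.47 in fed KO, and 40.7 ± 10.5 in fasted and 43.4 ± 2.43 in fed WT. E3 had the lowest levels, 23.2 ± 4.59 in fasted and 24.3 ± 3.69 in fed KO, and 19.2 ± 1.21 in fasted and 26.7 ± 1.89 in fed WT. In E4 they were 41.8 ± 6.03 in fasted and 38.9 ± 2.09 in fed KO, and 46.7 ± 2.90 in fasted and 44.3 ± 2.58 in fed WT. In E5 they were 39.9 ± 1.94 in fasted and 45.3 ± 4.91 in fed KO, and 34.6 ± 3.42 in fasted and 48.2 ± 5.72 in fed WT.

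Arl13b, a GTPase that marks the ciliary membrane, had its highest group means in E3: 33.0 ± 0.851 in fasted and 32.8 ± 3.39 in fed KO, and 36.7 ± 4.44 in fasted and 33.4 ± 2.34 in fed WT. In E1 it averaged 21.5 ± 2.01 in fasted and 24.8 ± 1.10 in fed KO, and 21.8 ± 3.10 in fasted and 23.9 ± 2.19 in fed WT. The E2 means were 26 ± 2.93 in fasted and 28.9 ± 1.55 in fed KO, and 26.6 ± 4.94 in fasted and 31.6 ± 2.14 in fed WT. In E1, E2, E4 and E5 the fed means stood above the fasted ones. Of these lines, only E1 has 1 batch label for both feeding states. E4 averaged 21.5 ± 2.45 in fasted and 29.6 ± 1.76 in fed KO, and 20.1 ± 1.88 in fasted and 29.5 ± 1.77 in fed WT. E5 averaged 24.7 ± 3.42 in fasted and 31.2 ± 3.88 in fed KO, and 25.8 ± 1.58 in fasted and 31.7 ± 1.94 in fed WT.

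Ift88, a core subunit of complex B, was likewise highest in E3, with 54.5 ± 2.85 in fasted and 52.6 ± 1.15 in fed KO, and 53.3 ± 4.74 in fasted and 53.7 ± 4.81 in fed WT. E1 had 40.3 ± 2.31 in fasted and 45.9 ± 4.57 in fed KO, and 44.6 ± 0.576 in fasted and 44.5 ± 3.31 in fed WT. E2 had 43.7 ± 4.24 in fasted and 47.0 ± 5.66 in fed KO, and 43.7 ± 11.2 in fasted and 49.7 ± 2.10 in fed WT. The lowest mean was that of fasted E4 WT. E4 had 41.5 ± 1.04 in fasted and 49.4 ± 4.82 in fed KO, and 36.7 ± 3.05 in fasted and 50.1 ± 6.58 in fed WT. E5 had 44.9 ± 4.38 in fasted and 51.8 ± 1.89 in fed KO, and 47.7 ± 3.11 in fasted and 50.8 ± 2.42 in fed WT.

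Bbs1, a BBSome subunit, was lowest in E3, at 33.1 ± 1.62 in fasted and 33.6 ± 0.176 in fed KO, and 29.8 ± 4.41 in fasted and 32.8 ± 2.01 in fed WT. In E1 it stood at 42.7 ± 2.01 in fasted and 46.4 ± 3.18 in fed KO, and 47.1 ± 1.98 in fasted and 46.1 ± 2.08 in fed WT. In E2 it stood at 43.4 ± 0.790 in fasted and 42.6 ± 6.43 in fed KO, and 45.1 ± 6.44 in fasted and 46.0 ± 3.12 in fed WT. Outside E3 its 16 group means ran from 40.8 to 49.6, with SDs from 0.716 to 6.44. E4 gave 45.5 ± 4.40 in fasted and 42.4 ± 1.31 in fed KO, and 49.6 ± 4.40 in fasted and 40.8 ± 1.55 in fed WT. E5 gave 46.4 ± 2.95 in fasted and 43.8 ± 5.11 in fed KO, and 48.6 ± 1.54 in fasted and 41.9 ± 0.716 in fed WT.

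E3 stood apart in level for 3 members. All 12 E3 libraries lay below all 60 libraries of the other lines for Tctn1 and Adcy3, and above all of them for Ift57. Tctn1, a transition zone gene, had 11.9 to 20.8 scaled CPM in E3 libraries, against 20.9 to 38.1 in the others. Ift57 of complex B had 45.2 to 59.7 scaled CPM in E3 libraries, against 23.6 to 44.7 in the others. Of 14084 genes with a mean of at least 1 scaled CPM, 2.44% lay below in this way and 1.4% above, and nothing particular to the members is read from 2 and 1 of 35. The ratio of medians, E3 over the other lines, was 0.471 for Mks1, 0.537 for Tctn1 and 0.584 for Adcy3, and 1.47 for Ift80, 1.47 for Ift57 and 1.49 for Cep290. GC content of the longest transcript is 54.6% in Mks1, 55.6% in Tctn1 and 56.7% in Adcy3, against 40.9% in Ift80, 45.5% in Ift57 and 38.7% in Cep290. Members of similar GC content had other ratios, 1.06 for B9d2 (56.0%) and 0.893 for Bbs5 (39.9%). The part of GC content in these levels was not tested, and line and batch label cannot be told apart.

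The first comparison asked whether loss of an element changed cilium genes. No member was called in any of the 10 comparisons of KO with WT, where edgeR's quasi-likelihood test called 0 of 14590 to 20243 genes at an adjusted p under 0.05, a background of 0.0%. Nor was one called over both feeding states of a line, with the same background, and DESeq2 called 0 members as well. With any 1 library left out, those of other tissue and fasted E4 KO 1 included, the count stayed 0. All 3 fasted E2 WT libraries held pituitary transcripts, so leaving out 1 does not clear that group of them. At an unadjusted p under 0.05, fasted mice gave 2 of 35 members in E1 (background 3.9%), 2 of 36 in E2 (7.47%), 7 of 35 in E3 (17.5%), 0 of 35 in E4 (9.39%) and 4 of 36 in E5 (7.32%). Fed mice gave 1 of 35 members in E1 (background 4.85%), 0 of 36 in E2 (3.5%), 2 of 35 in E3 (9.74%), 2 of 35 in E4 (5.23%) and 1 of 36 in E5 (2.82%).

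The estimates bound how large a difference could be. Over the 10 comparisons the members' log2 fold changes, KO over WT, ran from -0.43 to 0.45, and the median half-width of their 95% intervals lay between 0.16 in fed E1 and 0.31 in fasted E2. Adcy3 ran from -0.27 to 0.27 on this scale, with outermost interval bounds of -0.75 and 0.64. Arl13b ran from -0.16 to 0.11, Ift88 from -0.15 to 0.17 and Bbs1 from -0.15 to 0.15.

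**Figure D2:**
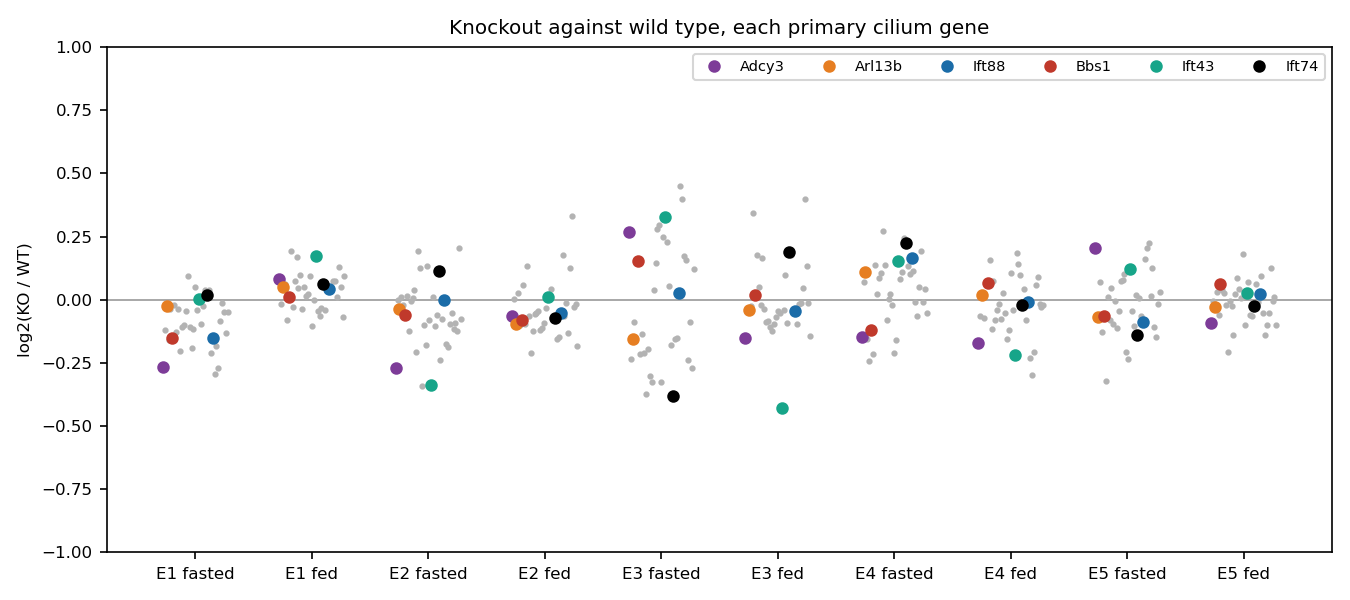
Log2 fold change of KO over WT (y axis) of each member in the 10 comparisons (x axis: line and feeding state); coloured points are named genes and grey points the rest. All points lie between -0.43 and 0.45 and none passed the test.

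The 2 members of smallest p in each comparison are given as values that did not pass. In fed E3, Ift43 had 37.3, 34.6 and 36.9 scaled CPM in KO libraries, against 42.9, 49.8 and 51.8 in WT libraries. These groups did not overlap; the log2 fold change was -0.43 ± 0.10 (SE, edgeR adjusted p = 0.288), with Ift74 at 0.19 ± 0.08 (edgeR adjusted p = 0.510). In fasted E3, Ift74 had 51.7, 48.4 and 42.8 scaled CPM in KO libraries, against 63.9, 58.1 and 63.7 in WT libraries. Again the groups did not overlap; the log2 fold change was -0.38 ± 0.12 (SE, edgeR adjusted p = 0.187), with Ift20, a complex B subunit also found at the Golgi, at -0.33 ± 0.12 (edgeR adjusted p = 0.238).

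For the other lines the log2 fold changes of the 2 members are given ± SE. In fasted E1 they were -0.27 ± 0.09 for Adcy3 and -0.21 ± 0.08 for Ift81 of complex B, and in fed E1 0.17 ± 0.07 for Ift43 and 0.17 ± 0.09 for the BBSome subunit Bbs5. In fasted E2 they were -0.34 ± 0.12 for the complex A subunit Ift122 and -0.34 ± 0.12 for Ift43, and in fed E2 -0.18 ± 0.09 for Tulp3, which brings receptors to complex A, and -0.21 ± 0.13 for the BBSome subunit Bbs7. Fasted E4 gave 0.27 ± 0.13 for Bbs9 and 0.22 ± 0.11 for Ift74, and fed E4 -0.21 ± 0.07 for Tctn1 and -0.17 ± 0.07 for Adcy3. Fasted E5 gave -0.23 ± 0.09 for Ift27, the small GTPase of complex B, and 0.21 ± 0.09 for Adcy3, and fed E5 -0.21 ± 0.09 for Bbs5 and -0.14 ± 0.08 for Tctn1. The smallest edgeR adjusted p among the members of these 8 comparisons was 0.529.

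Over both feeding states, 0 of 35 members in E1 had an unadjusted p under 0.05 (background 2.04%), 2 of 36 in E2 (5.23%), 1 of 35 in E3 (7.01%), 2 of 35 in E4 (2.97%) and 1 of 36 in E5 (3.29%). The named values were -0.10 ± 0.06 for Tmem67 and 0.07 ± 0.05 for Gpr161 in E1, -0.18 ± 0.07 for Ift122 and -0.15 ± 0.06 for Tulp3 in E2, and -0.20 ± 0.09 for Cep290 and -0.14 ± 0.07 for Alms1 in E3. In E4 they were -0.17 ± 0.06 for Adcy3 and -0.15 ± 0.06 for Tctn1, and in E5 -0.17 ± 0.08 for Ift27 and -0.13 ± 0.06 for Cep290, again as log2 fold change ± SE. The authors' deposited tables cover 8 of the 10 comparisons of KO with WT and list 35 members each. None of these authors' deposited tables gives a member an adjusted p under 0.05; they call 1 to 43 genes each. In the authors' deposited table for fed E3, Ift43 has a log2 fold change, WT over KO, of 0.43 with an unadjusted p of 0.00174.

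The second comparison asked whether cilium genes differed between fasted and fed mice. In E1 knockouts 17 of 35 members did: 16 fell and 1, Ift20, rose. The background was 34.9% of 14807 genes called, 16.6% lower and 18.3% higher. All 3 complex A subunits fell, with 4 of 10 of complex B, 3 of 6 of the BBSome, 3 of 10 of the transition zone, 2 of 4 ciliary membrane genes and Alms1 of the basal body. The median log2 fold change of the 35 was -0.22, against 0.01 over all genes tested, and 28 of 35 were below 0.

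Adcy3 had the smallest p. It had 31.0, 30.0, 30.4 and 34.4 scaled CPM in fasted E1 KO libraries, against 46.2, 46.8, 48.6 and 48.3 in fed ones. The groups did not overlap, and the log2 fold change was -0.60 ± 0.07 (SE, edgeR adjusted p = 0.000158). Bbs9 had 113.2, 101.3, 117.7 and 116.0 scaled CPM in fasted E1 KO libraries, against 172.1, 162.6, 162.2 and 170.7 in fed ones. It fell by 0.58 ± 0.06 on the log2 scale (SE, edgeR adjusted p = 0.000160), again with no overlap. Ift172, a peripheral complex B subunit, had 64.6, 64.6, 64.9 and 66.3 scaled CPM in fasted E1 KO libraries, against 87.4, 87.9, 98.9 and 91.9 in fed ones. It fell by 0.50 ± 0.06 on the log2 scale (SE, edgeR adjusted p = 0.000292), without overlap.

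Further members fell in E1 knockouts by the following log2 amounts (± SE). Tmem231 and B9d1 of the transition zone fell by 0.43 ± 0.07 and by 0.42 ± 0.09. Ift81 of complex B fell by 0.40 ± 0.07 and Ift122 of complex A by 0.45 ± 0.10. Ift43 had 27.4, 36.4, 33.1 and 46.8 scaled CPM in fasted E1 KO libraries, against 55.5, 50.7, 57.5 and 52.2 in fed ones, and fell by 0.59 ± 0.13. Its groups did not overlap, though the fasted libraries spread widely. Ift80 fell by 0.30 ± 0.07, Ift140 of complex A by 0.24 ± 0.06, Tctn1 by 0.30 ± 0.08 and Tulp3 by 0.23 ± 0.07. The edgeR adjusted p of these 9 lay between 0.00113 and 0.0238. Ift20 rose by 0.22 ± 0.08 (edgeR adjusted p = 0.0493), a call that was kept with the GC correction and without fasted KO 3 or fasted KO 4. It was lost with RLE normalization, DESeq2, no filter on low counts, each of the other 6 libraries left out, and both libraries of most oligodendrocyte or cortical transcripts left out together.

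The other 4 that fell in E1 knockouts were Bbs7 by 0.22 ± 0.07, Alms1 by 0.22 ± 0.07, Ift74 by 0.21 ± 0.07 and Bbs5 by 0.25 ± 0.09 (log2 ± SE, edgeR adjusted p between 0.0357 and 0.0416). The members that did not pass included other subunits of the same complexes: Ift88 stood at -0.19 ± 0.08, Ift52 at -0.10 ± 0.07, Ift57 at 0.03 ± 0.12, Bbs1 at -0.12 ± 0.07 and Bbs2 at -0.21 ± 0.09. Arl13b stood at -0.21 ± 0.08, Gpr161 at 0.05 ± 0.07 and Ift46 at 0.05 ± 0.10. The count of called members was 11 to 17 with single libraries left out, 11 without fasted KO 2, fed KO 1 or fed KO 2, and 13 without the 2 libraries of most oligodendrocyte or cortical transcripts.

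In E1 wild types 3 of 35 members were called, all lower, against a background of 5.27% of 14877 genes (2.97% lower). Ift80, another peripheral complex B subunit, had 31.0, 28.9 and 28.2 scaled CPM in fasted E1 WT libraries, against 39.2, 37.8, 34.5 and 42.1 in fed ones, and fell by 0.39 ± 0.08 (SE, edgeR adjusted p = 0.0292). Bbs9 fell by 0.38 ± 0.08 (edgeR adjusted p = 0.0328). Ift172 had 66.8, 68.7 and 74.7 scaled CPM in fasted E1 WT libraries, against 84.0, 87.8, 88.0 and 83.6 in fed ones, and fell by 0.29 ± 0.07 (edgeR adjusted p = 0.0481). Fasted and fed groups did not overlap for Ift80 and Ift172. The count depends on single libraries: it was 0 without fasted WT 1, fasted WT 2, fed WT 1, fed WT 2 or fed WT 4, 1 without fed WT 3 and 8 without fasted WT 3, the library of cortical transcripts. Without that library and fed WT 2, of muscle transcripts, it was 6. The difference between the fasting effects in E1 KO and E1 WT, tested as an interaction, called 0 members against a background of 0.0%; 5 of 35 had an unadjusted p under 0.05 (background 8.1%), the smallest belonging to Adcy3 at -0.34 ± 0.12 (edgeR adjusted p = 0.596) and Bbs5 at -0.37 ± 0.14.

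**Figure D3:**
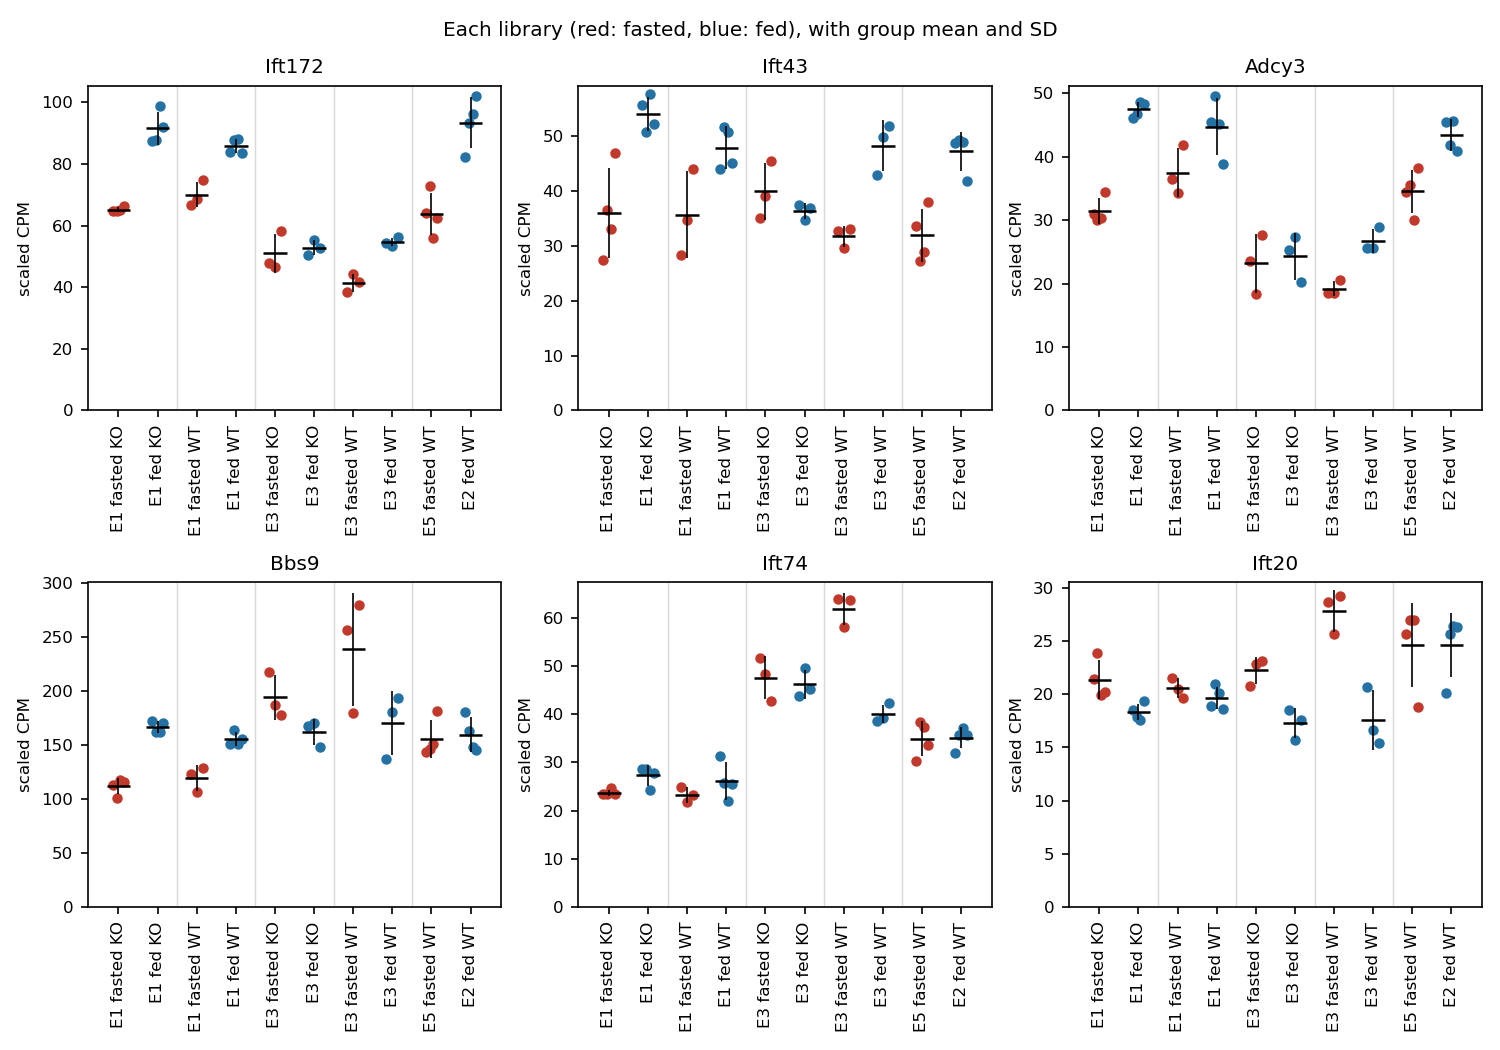
Scaled CPM of 6 members in each library (red, fasted; blue, fed), with group mean and SD. Ift172 in fasted E1 KO libraries lies between 64.6 and 66.3, against 87.4 to 98.9 in fed E1 KO libraries.

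In E3 wild types members moved in both directions. Of 35 members 9 were called, 4 higher and 5 lower, against a background of 19.9% of 14534 genes (11.5% higher, 8.43% lower). Ift74, the complex B subunit that pairs with Ift81, had 63.9, 58.1 and 63.7 scaled CPM in fasted E3 WT libraries, against 38.7, 39.3 and 42.3 in fed ones. It rose by 0.64 ± 0.10 on the log2 scale (SE, edgeR adjusted p = 0.00375) with no overlap. Ift20 had 28.6, 25.6 and 29.2 scaled CPM in fasted E3 WT libraries, against 20.7, 16.6 and 15.4 in fed ones, and rose by 0.67 ± 0.14 (edgeR adjusted p = 0.0106), also without overlap. Ift81 rose by 0.34 ± 0.10 and Bbs10 by 0.66 ± 0.20, with edgeR adjusted p of 0.0411 and 0.0430. Of 11 alternatives, 1 kept the call of Ift81 and 2 that of Bbs10.

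Ift43 had the smallest p among those that fell in E3 wild types. It had 32.6, 29.5 and 33.0 scaled CPM in fasted E3 WT libraries, against 42.9, 49.8 and 51.8 in fed ones, and fell by 0.59 ± 0.11 (SE, edgeR adjusted p = 0.00772) without overlap. Nphp4 of the transition zone fell by 0.62 ± 0.14, Tulp3 by 0.44 ± 0.11, Adcy3 by 0.46 ± 0.11 and Ift172 by 0.39 ± 0.10, with edgeR adjusted p between 0.0169 and 0.0218. Median GC content of the longest transcript is 44.1% in the 4 that rose and 55.8% in the 5 that fell. After correction of each library for GC content 3 members were called, Ift20, Ift74 and Tulp3. With the replicate number as a block 3 were called, Ift20, Ift43 and Ift74. Without single libraries 2 to 9 were called: 2 without fed WT 3, 3 without fed WT 2, 4 without fasted WT 1 and 5 without fasted WT 3.

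In E3 knockouts 0 of 35 members were called by edgeR, against a background of 0.505% of 14663 genes, and 0 by DESeq2. At an unadjusted p under 0.05 there were 4 (background 13.1%). Ift20 had 20.8, 22.8 and 23.1 scaled CPM in fasted E3 KO libraries, against 18.5, 15.7 and 17.6 in fed ones, a log2 fold change of 0.38 ± 0.12 (SE, edgeR adjusted p = 0.218). Ift46 of complex B stood at 0.35 ± 0.11 (edgeR adjusted p = 0.226). Adcy3 stood at -0.06 ± 0.17 and Ift172 at -0.04 ± 0.10.

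The interaction of genotype and feeding in E3 called 1 of 35 members, against a background of 1.34% of 15033 genes (0.486% higher, 0.858% lower). At an unadjusted p under 0.05 there were 7 (background 20.4%). It was Ift43, whose fasting effect was 0.77 ± 0.16 higher in KO than in WT on the log2 scale (SE, edgeR adjusted p = 0.0397). Ift43 had 35.1, 39.0 and 45.4 scaled CPM in fasted E3 KO libraries, against 37.3, 34.6 and 36.9 in fed ones. Those 2 KO groups overlap, while the WT groups above do not. The call was lost after the GC correction, with the replicate number as a block, and without the 3 E3 libraries that held choroid plexus transcripts. It was also lost without any 1 of fasted KO 2, fasted KO 3, fasted WT 1, fasted WT 3, fed KO 1, fed KO 2, fed KO 3, fed WT 2 or fed WT 3. In each of these fits 0 members were called. Over all 18 alternatives, 6 of which called Ift43, the edgeR and DESeq2 adjusted p lay between 0.00248 and 0.209. In E2, E4 and E5 the interaction called 0 members, with a background of 0.0%, and batch moves with feeding there. At an unadjusted p under 0.05 there were 2 of 36 in E2 (background 6.45%), 0 of 35 in E4 (11.2%) and 2 of 36 in E5 (5.95%). The 2 members of smallest p had log2 values of -0.34 ± 0.15 (Ift43) and -0.28 ± 0.13 (Ift122) in E2, -0.33 ± 0.16 (Ift20) and 0.34 ± 0.17 (Mks1) in E4, and 0.35 ± 0.12 (Tctn1) and 0.23 ± 0.10 (Bbs5) in E5.

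Fasted E5 WT and fed E2 WT libraries carried the same batch label, 20013, so they were compared too, although line and feeding cannot be told apart between them. Of 36 members 11 were called, 6 higher and 5 lower, against a background of 30.7% of 18753 genes (15.7% higher, 15% lower). Ift172 had 64.0, 72.7, 55.9 and 62.3 scaled CPM in fasted E5 WT libraries, against 82.1, 93.4, 96.1 and 102.1 in fed E2 WT libraries. The groups did not overlap, and the log2 fold change was -0.53 ± 0.09 (SE, edgeR adjusted p = 0.00186). Ift43 had 33.6, 27.2, 28.9 and 37.9 scaled CPM in fasted E5 WT libraries, against 48.7, 49.2, 48.9 and 41.8 in fed E2 WT libraries, a log2 fold change of -0.53 ± 0.11. Adcy3 at -0.30 ± 0.09, Arl13b at -0.26 ± 0.08 and Tulp3 at -0.26 ± 0.09 were lower too.

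The higher members of that contrast came from complex B, the BBSome, its chaperonins and the transition zone. Ift46 had 50.7, 50.4, 46.0 and 46.0 scaled CPM in fasted E5 WT libraries, against 37.2, 36.8, 35.9 and 37.8 in fed E2 WT libraries, a log2 fold change of 0.42 ± 0.07 (SE, edgeR adjusted p = 0.00177) without overlap. Bbs4 stood at 0.45 ± 0.09, Bbs10 at 0.64 ± 0.15, Tmem216 at 0.52 ± 0.14, Tctn3 at 0.33 ± 0.09 and Ift27 at 0.29 ± 0.10. Without fasted E5 WT 1 and 3, the libraries of choroid plexus and pituitary transcripts, 5 members were called (Ift46, Bbs4 and Bbs10 higher, Ift172 and Ift43 lower). Single libraries left out gave 6 to 12: 6 without fed E2 WT 3, and 7 without fed E2 WT 2, fasted E5 WT 2 or fasted E5 WT 3.

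**Figure D4:**
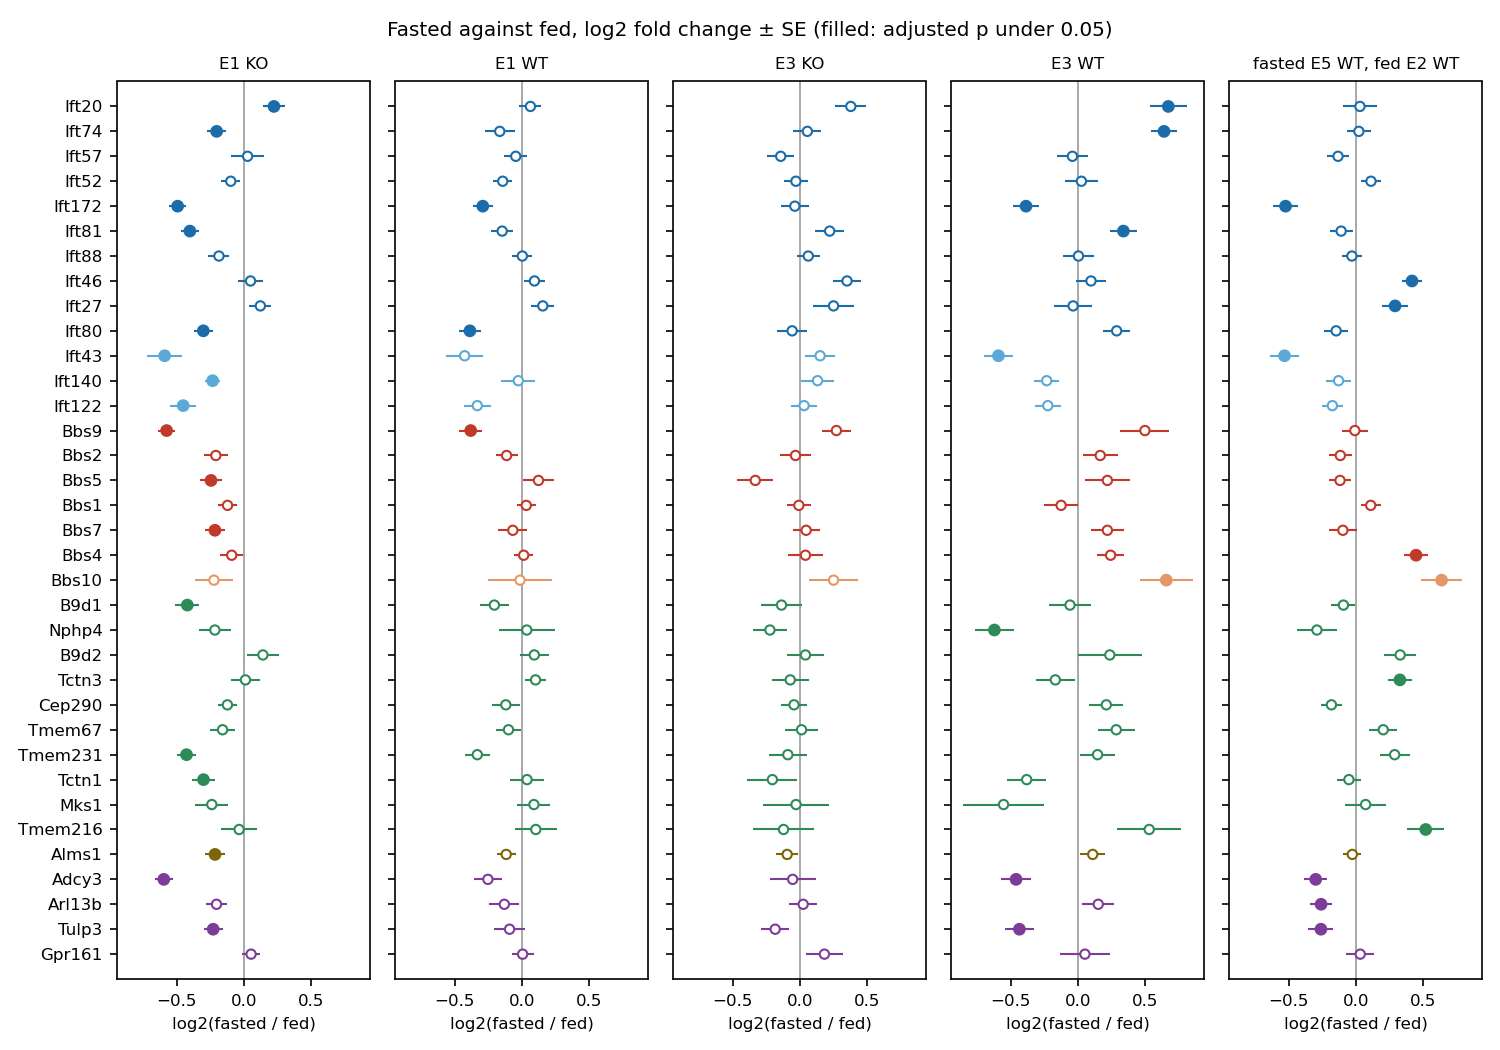
Log2 fold change of fasted over fed ± SE (x axis) of the members (rows, by role) in 5 comparisons; filled points passed the test. Ift172 is filled and left of 0 in 4 of the 5 panels, and Adcy3, Tulp3 and Ift43 in 3.

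The 5 fasting comparisons share no library, and some members kept 1 direction through them, at a share no higher than that of all genes. Ift172, Adcy3, Tulp3 and B9d1 had an estimate below 0 in all 5, 11.4% of the 35 members, against 12.6% of the 14234 genes tested in all 5. Ift20, Ift46, B9d2 of the transition zone and Gpr161, a ciliary receptor that restrains hedgehog signalling, had one above 0 in all 5, 11.4% of members, against 13.8% of genes. Ift172 was called lower in 4 of the 5, with log2 fold changes from -0.53 to -0.04, and Adcy3, Tulp3 and Ift43 in 3. These 4 are 11.4% of members, against 3.37% of genes called lower in at least 3. The list was chosen with earlier results known, so this share is only a description. Each of the 4 owes 1 call to fasted E5 against fed E2 WT, where line and feeding cannot be told apart. The Tulp3 call there was kept in 2 of 13 alternatives. No member was called higher in more than 2, while 3.56% of genes were in at least 3. Ift74 and Ift81 were called in both directions, lower in fasted E1 KO and higher in fasted E3 WT. The higher call of Ift81 was kept in 1 of 11 alternatives. The lower call of Ift74 was lost with DESeq2, with no filter on low counts, and with any 1 library but fed E1 KO 3 left out. In none of the comparisons were 10 of 35 members called, while 71.4% of members and 60.6% of genes were called at least once.

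With E1 and E3 together and the line as a covariate, 4 of 35 members were called in wild types, all lower, against a background of 10.7% of 15159 genes (5.13% higher, 5.59% lower). At an unadjusted p under 0.05 there were 6 (background 29.1%). They were Ift172 at -0.35 ± 0.06, Ift43 at -0.51 ± 0.10, Adcy3 at -0.36 ± 0.08 and Ift122 at -0.29 ± 0.07 (log2 ± SE), with edgeR adjusted p between 0.00488 and 0.0180. The count was 8 without fasted E1 WT 3 and 7 without that library, fed E1 WT 2 and fasted E3 WT 1. In knockouts 8 of 35 were called, 1 higher and 7 lower, against a background of 19.2% of 15246 genes (10.8% higher, 8.36% lower). Ift20 rose by 0.29 ± 0.07. Ift172 fell by 0.30 ± 0.08, Bbs5 by 0.29 ± 0.08, Tulp3 by 0.21 ± 0.06, Tmem231 by 0.29 ± 0.08, Adcy3 by 0.37 ± 0.11, B9d1 by 0.31 ± 0.09 and Alms1 by 0.17 ± 0.06. The count was 5 without fasted E1 KO 2, 12 without fasted E3 KO 3 and 13 without fasted E1 KO 4, fasted E3 KO 2 and fed E3 KO 3 together.

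The fasting effect in wild types differed between E3 and E1 for 6 of 35 members, all higher in E3, against a background of 13.1% of 15159 genes (6.15% higher). The log2 differences, E3 minus E1, were 0.64 ± 0.13 for Ift80, 0.77 ± 0.16 for Ift74, 0.85 ± 0.21 for Bbs9, 0.57 ± 0.15 for Ift20, 0.45 ± 0.12 for Ift81 and 0.44 ± 0.14 for Tmem231 (SE, edgeR adjusted p between 0.00804 and 0.0469). Bbs9 had 257.2, 179.6 and 279.7 scaled CPM in fasted E3 WT libraries, against 137.2, 180.8 and 193.5 in fed ones. Those groups overlap, and Bbs9 was not called within E3 wild types. The count was 0 without fasted E3 WT 1, fasted E1 WT 3 and fed E1 WT 2 together. Without single libraries it was 3 to 7: 3 without fasted E1 WT 2, fasted E3 WT 3 or fed E3 WT 3. Line and batch label cannot be told apart in this difference.

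Where batch and feeding coincide, Ift172 is given side by side with no test, as mean ± SD of scaled CPM (n = 3 in the fasted E2 groups and in fasted E4 KO, otherwise 4). In E2 it averaged 62.8 ± 3.56 in fasted and 84.7 ± 8.60 in fed KO, and 70.9 ± 3.06 in fasted and 93.5 ± 8.39 in fed WT. In E5 it averaged 68.3 ± 5.21 in fasted and 83.8 ± 3.35 in fed KO, and 63.7 ± 6.93 in fasted and 83.3 ± 7.33 in fed WT. In E4 the means lay closer, 70.3 ± 7.07 in fasted and 68.6 ± 1.36 in fed KO, and 71.2 ± 2.37 in fasted and 75.0 ± 1.49 in fed WT. Ift172 is the member called lower most often, and it does not stand for the others. Tulp3 had 39.5, 40.4 and 39.5 scaled CPM in fasted E2 KO libraries, against 32.5, 36.6, 29.2 and 31.5 in fed ones. In E5 WT Tulp3 lay lower in fasted libraries, at 25.9 to 34.2 scaled CPM, against 36.9 to 52.2 in fed ones.

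Markers of other cells also differed in the fasting comparisons. Ependymal cells carry motile cilia, which are built with the same transport machinery. As their markers, 26 genes of ependyma and of motile cilia were followed, none of them at 0 in any group named here. They are called motile cilium markers below, though not all are genes of the cilium. In E1 KO 20 of the 26 fell (median log2 -0.64); they summed to 272.0 scaled CPM on average and at most 318.0 in fasted libraries, against 410.6 to 456.0 in fed ones. In E1 WT 3 fell and 1 rose (median -0.34), with sums of 292.5 to 339.5 in fasted libraries, against 351.5 to 467.0 in fed ones. In E3 the medians were above 0. In E3 WT 5 rose (median 0.56), with sums of 354.9 to 469.5 in fasted libraries, against 246.5 to 361.1 in fed ones. In E3 KO 1 rose (median 0.62), with sums of 386.1 to 569.4 in fasted libraries, against 264.1 to 363.8 in fed ones. In the E3 minus E1 difference 8 were higher (median 0.73), and between fasted E5 and fed E2 WT 4 were higher and 1 lower (median 0.01).

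Other marker lists moved as well. In E1 KO 7 of 8 thalamic markers rose, with sums of 466.9 to 751.4 scaled CPM in fasted libraries, against 339.5 to 382.8 in fed ones. Oligodendrocyte markers rose in 4 of 8 (median log2 0.48), astrocyte markers in 4 of 8 and neuronal markers in 3 of 6, and 4 of 4 blood markers fell. Of 17 hypothalamic markers 4 fell and 1 rose (median log2 -0.41), with sums of 303.8 to 581.1 scaled CPM in fasted libraries, against 487.2 to 617.1 in fed ones. In E3 WT 3 of 5 cortical markers rose (median log2 1.27), 5 of 17 hypothalamic and 4 of 8 astrocyte markers rose, and 4 of 4 blood markers fell; without fasted WT 2, the library of most cortical transcripts there, 9 members were called. Also in E3 WT 6 of 8 endothelial markers fell, with sums of 65.3 to 113.7 scaled CPM in fasted libraries, against 172.3 to 233.9 in fed ones. The 35 measured members themselves summed to 1070.4 to 1175.5 scaled CPM in fasted E1 KO libraries, against 1348.8 to 1379.4 in fed ones. The part of these and the motile cilium markers in the members' changes was not tested. As a check of the fasted state, of 8 glucocorticoid and fasting response genes 6 rose in E1 KO, 4 in E1 WT, 6 in E3 KO and 6 in E3 WT.

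**Figure D5:**
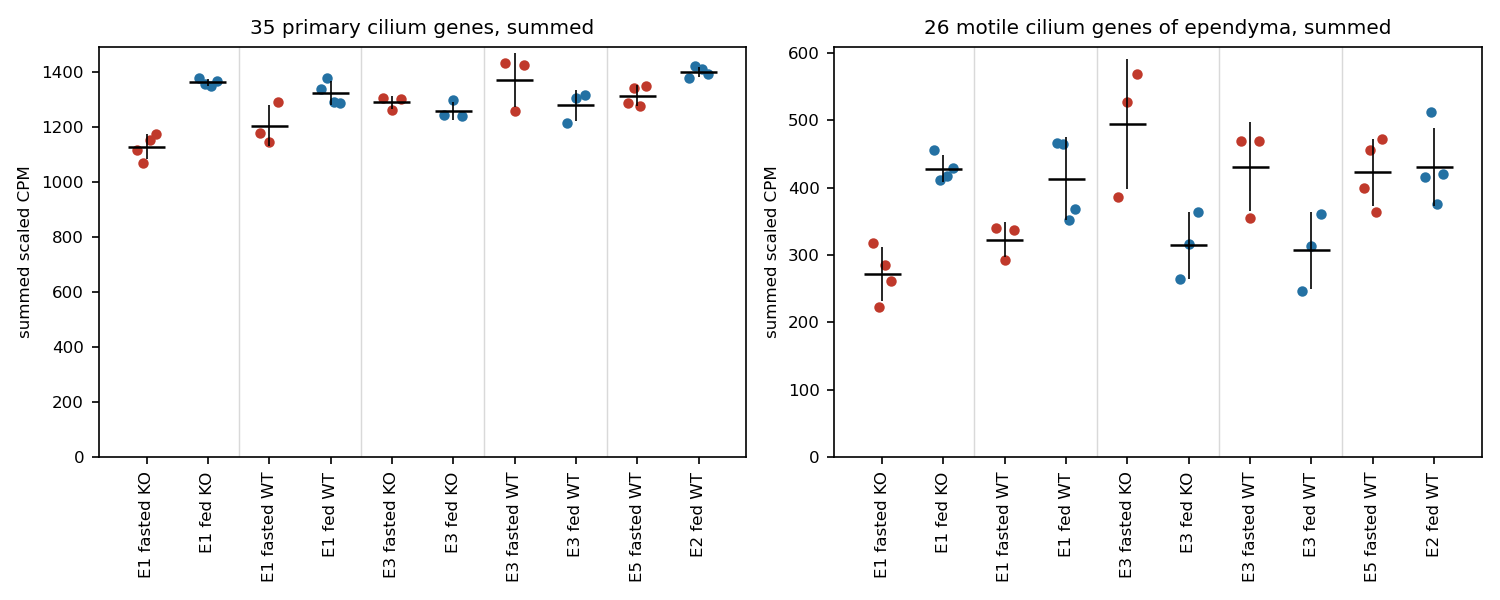
Summed scaled CPM of the members and of the 26 motile cilium markers in each library (red, fasted, and blue, fed), with group mean and SD. The markers are genes of ependyma and of motile cilia. They sum to at most 318.0 in fasted E1 KO libraries, against 410.6 to 456.0 in fed ones. In fasted E3 KO libraries they sum to 386.1 to 569.4, against 264.1 to 363.8 in fed ones.

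Other genes of the cilium, 102 on 8 lists, were read in the same comparisons. The list of transcription factors includes Rfx5, and a place on it does not show a role in cilia. In E1 KO 35 of them fell and 7 rose, 41.2% called against 34.9% of all genes. By smallest p, those that fell were Ttc8, the further BBSome subunit, at -0.68 ± 0.07, Cep89 and Fbf1 of the centriole's distal appendages at -0.61 ± 0.08 and -0.50 ± 0.07, and Rfx2, a transcription factor of motile cilia, at -0.96 ± 0.13. Those that rose were Ccp110, which caps centrioles, at 0.35 ± 0.09, the receptors Sstr3 and Galr2 at 0.42 ± 0.12 and 0.84 ± 0.27, and Rfx5 at 0.37 ± 0.12 (log2 ± SE). In E1 WT 3.92% were called, against 5.27% of all genes: 3 of 102 fell, Gli2 of hedgehog signalling at -0.46 ± 0.09, Ttc8 at -0.40 ± 0.09 and Invs at -0.27 ± 0.07, and 1, Rfx5, rose by 0.40 ± 0.08.

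In E3 WT 7 of 101 other cilium genes rose and 9 fell, 15.8% called against 19.9% of all genes. Npy2r, a neuropeptide Y receptor, rose by 0.95 ± 0.14, Arl6, the GTPase that recruits the BBSome, by 0.82 ± 0.12, Rp2 by 0.70 ± 0.14 and Rfx3, a transcription factor of cilium genes, by 0.59 ± 0.13. Among those that fell, Pkd1 stood at -0.81 ± 0.09, Rab11fip3 at -0.67 ± 0.09, Anks6 at -0.68 ± 0.13 and Cep164 of the distal appendages at -0.59 ± 0.12. In E3 KO 0 of 102 rose and 0 fell in edgeR's test, and in edgeR's test 0 were called in the 10 comparisons of KO with WT. The E3 interaction called 1, Rab11fip3, a Rab11 effector at centrosomes, at 0.70 ± 0.15.

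Between fasted E5 and fed E2 WT 14 other cilium genes were higher and 16 lower, 29.4% called against 30.7% of all genes. The melanocortin receptor Mc4r stood at 1.19 ± 0.28, Ttc30b of complex B at 0.73 ± 0.13, Wdr19 of complex A at 0.35 ± 0.08 and Unc119 at 0.39 ± 0.09 on the log2 scale. Traf3ip1 of complex B stood at -0.50 ± 0.09, and the distal appendage genes Fbf1, Sclt1 and Cep89 at -0.48 ± 0.08, -0.44 ± 0.09 and -0.41 ± 0.08. With E1 and E3 together 4 fell in WT (3.92%, against 10.7% of all genes called), Gli2 by 0.44 ± 0.09, Cep97 by 0.33 ± 0.08, Mrap2, a partner of the melanocortin 4 receptor, by 0.29 ± 0.08 and Rfx4 by 0.24 ± 0.07. In KO of both lines 15 fell and 1 rose (15.7%, against 19.2% of all genes); Fbf1 stood at -0.35 ± 0.08, Odf2 at -0.26 ± 0.06, Ttc8 at -0.40 ± 0.10 and Sclt1 at -0.27 ± 0.07, and Tmem218 at 0.34 ± 0.09. The E3 minus E1 difference called 8 higher, led by Npy2r at 1.08 ± 0.20, Arl6 at 0.87 ± 0.16, the BBSome subunit Bbip1 at 0.64 ± 0.13 and Ift22 of complex B at 0.58 ± 0.12. It called 12 lower (19.6% in both directions, against 13.1% of all genes), led by Pkd1 at -0.98 ± 0.13, Cep131 at -0.82 ± 0.16, Pcnt at -0.66 ± 0.14 and Rfx5 at -0.82 ± 0.19.

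The promoters were also read by call. Of the 13 members with a promoter that fell in E1 KO, 7 hold the arm GTTGCC, Ift172, Tmem231 and Tctn1 among them, against 9 of the other 18 tested there, counts given as a description.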

How the data were processed

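Hypothalamic total RNA was sequenced in 72 libraries. Reads were counted per gene by the authors, who deposited 10 tables of raw counts, 1 per line and feeding state, and 8 edgeR tables with log2 fold changes and p-values. The submitters' processing notes name HISAT2, Bowtie2, edgeR and the build mm10, without versions or roles; the strand setting is not given in the sources used here. The 58 per-sample columns of the edgeR tables were not used.

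Genes were filtered with filterByExpr (minimum count 10, total 15). 28 comparisons were fitted on the counts with edgeR 4.0.16 (TMM, quasi-likelihood test) in R 4.3.3, each only on the libraries of its groups, and p-values were adjusted after Benjamini-Hochberg over all genes tested. A gene is called at an adjusted p under 0.05. Alternatives were DESeq2 1.42.0, RLE normalization, no filter, a GC correction, the replicate number as a block and libraries left out; the removals of libraries with other tissue were chosen after seeing the data. The fit was tested on simulated data. No pair of libraries agreed within sampling noise. Exon lengths, GC content (of the longest transcript of a gene) and overlaps come from GENCODE M21, promoters from RefSeq.

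The members and lists were chosen with earlier results of these data known. Named are the members called in each comparison, up to 12 by smallest p, or otherwise the 2 of smallest p, and up to 4 other cilium genes per direction. Adcy3, Arl13b, Ift88 and Bbs1 are given in every group. The further members named for E1 knockouts, and the genes compared for E3 levels, were chosen after their values were seen.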

Additional observations from a re-analysis of the deposited data

Results flagged for a closer look

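In 10 of 156 checks on groups of 4 libraries, 1 library stood apart from the other 3. Chance gives this in about 1 of 20 groups. In fasted E1 KO the highest library had 24.5 scaled CPM for Arl13b and 24.7 for Ift74. In fed E2 KO the highest had 55.4 scaled CPM for Ift88. In fed E2 WT the lowest had 41.8 for Ift43, 20.1 for Ift20 and 43.8 for Ift80. Fed E4 WT had a lowest library at 72.8 for Ift172 and a highest at 56.6 for Nphp4. The lowest library was at 18.8 for Ift20 in fasted E5 WT and at 40.8 for Bbs1 in fed E5 WT.

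The fasting effect in wild types was higher in E3 than in E1, by an interaction test, for Ift80 (0.639 on the log2 scale), Ift74 (0.77), Bbs9 (0.845), Ift20 (0.574), Ift81 (0.451) and Tmem231 (0.443). In the E3 interaction of genotype and feeding, Ift43 stood at 0.765 on the log2 scale.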

How the results depend on the processing

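The 0 calls among members in the comparisons of KO with WT, in the pooled genotype comparisons, in the E1, E2, E4 and E5 interactions and in E3 KO fasting stayed 0 under the alternatives run, replicate block and single libraries left out included. DESeq2 called 2 members in the E3 interaction and 6 in E1 WT fasting. The GC correction gave 0 in the E3 interaction, 6 in E1 WT and 3 in E3 WT. The replicate block gave 0 in the E3 interaction and 3 in E3 WT, where Ift20, Ift43 and Ift74 passed. Without libraries of other tissue the counts were 0 in the E3 interaction, 6 in E1 WT, 7 in E1 and E3 WT together, 13 in E1 and E3 KO together, 5 between fasted E5 and fed E2 WT and 0 in the E3 minus E1 difference. Single libraries left out gave 0 to 2 in the E3 interaction, 11 to 17 in E1 KO, 0 to 8 in E1 WT, 2 to 9 in E3 WT, 5 to 12 in E1 and E3 KO, 3 to 8 in E1 and E3 WT, 6 to 12 between fasted E5 and fed E2 WT and 3 to 7 in the E3 minus E1 difference. These removals also leave fewer libraries; other causes were not tested. No estimate of a named member was reversed where it had been called. Of estimates with single libraries left out, 820 stayed on their side of the threshold and 113 lost their call. The 820 include named members that were not called in the main fit and had no call to lose. These counts therefore give no rate at which calls were lost.

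Whether replicate numbers pair libraries was checked by the correlation of same-numbered deviations from the group means. It ran from -0.476 to 0.704 over the groups that share numbers, which gives no steady sign of a pairing. Differently numbered libraries were not set beside it, so it cannot exclude a pairing. Depth limits the members of low counts, the lowest being 6 counts of Bbs10 in 1 library. Replicate numbers given in accession order were not used to pair libraries.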
